A study of Mus musculus with 6 samples.

Results

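Transcripts of the oxidative phosphorylation system were examined as 2 sets, the subunits encoded in the nucleus and those encoded in the mitochondrial genome. Members were chosen by name alone: 118 of the 55349 rows of the count table carried a gene symbol of complex I (Ndufa, Ndufb, Ndufc, Ndufs and Ndufv), complex II (Sdha to Sdhd), complex III (Uqcr), complex IV (Cox4 to Cox8) or ATP synthase (Atp5), or one of the 13 protein-coding mitochondrial genes. Of these rows, 105 were nuclear, with 104 different symbols because Atp5o was listed under 2 gene identifiers. The libraries came from subcutaneous tumours of B16F10 cells, a mouse melanoma line, with the knockdown group given as genotype SQLE knockdown (shSQLE, replicates 1, 2 and 5) and the control group as genotype WT (shControl, replicates 1, 4 and 5). Both groups were labelled as without treatment. The labels give neither the age nor the strain of the host, whether replicates are separate animals, nor how many clones or hairpins make up the knockdown derivatives, so p-values reflect only how far these 6 libraries scatter, and that scatter may be technical.

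The respiratory chain passes electrons from NADH (complex I) and succinate (complex II) through ubiquinone, complex III and cytochrome c to complex IV, which reduces oxygen, and complexes I, III and IV pump protons across the inner mitochondrial membrane. ATP synthase uses the resulting gradient to make ATP. Complexes I, III, IV and ATP synthase are assembled from subunits of both genomes, whereas complex II is nuclear only, and the mitochondrial genes are transcribed by a separate polymerase as long transcripts that are then cut into single RNAs.

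Total expected counts, the counts per gene estimated by the authors' software, were between 16408622 and 19142185 per library, and 13268 genes passed the filter on low counts. Levels between libraries are given as CPM, counts scaled to library size with TMM factors, and levels between genes as TPM, which also takes the gene's length into account. Sqle, the targeted gene, which encodes squalene epoxidase of cholesterol synthesis, was at 70.4, 66.8 and 77.1 CPM in shSQLE replicates 1, 2 and 5, against 146, 151 and 148 CPM in shControl replicates 1, 4 and 5. Its log2 fold change was -1.05 (SE 0.17), with an adjusted p of 0.9996 by edgeR's quasi-likelihood test and 8.15e-05 by DESeq2. All 11 melanocyte lineage markers were detected, and their mean log2 CPM was between 9.73 and 9.97 in shSQLE and between 9.69 and 9.90 in shControl. A tumour holds tumour and host cells, and in such bulk RNA fewer cells of a type and less of an RNA per cell cannot be told apart.

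Of the 13 mitochondrial genes, 4 were at or near 0 in the table although their neighbours on the same genome were among the most abundant transcripts. The genes mt-Atp6 and mt-Atp8, which encode membrane subunits of ATP synthase, were at 0 in all 6 libraries. The complex IV subunit genes mt-Co2 and mt-Co3 had a single count each, mt-Co2 in shControl replicate 4 and mt-Co3 in shSQLE replicate 1. Counts for 3 of these genes stood instead at unprocessed pseudogenes on chromosome 1, nuclear copies of mitochondrial DNA. In the GENCODE M21 annotation on GRCm38, 7 such copies lie on the minus strand within 4663 bases at chr1:24611535-24616197. The build of the deposited counts is GRCm39, so these positions serve only to show how the copies are arranged; the gene identifiers and lengths of the 7 copies and of their mitochondrial genes match the deposited table.

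The copies are shown here against the mitochondrial genes because a read from a stretch without a differing letter matches both. Over the full 681 bases of Gm28661 the copy is identical to mt-Co2, and its end is the same sequence without the last codon, which is in capitals in mt-Co2 (chrM:7637-7696, plus strand; Gm28661 chr1:24614885-24614941, minus strand, both GRCm38).
mt-Co2: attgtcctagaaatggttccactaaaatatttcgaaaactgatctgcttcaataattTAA
Gm28661: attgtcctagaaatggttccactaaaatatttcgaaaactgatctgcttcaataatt

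The copy Gm10925 is likewise identical to mt-Atp6 over 678 bases and Gm28437 to mt-Co3 over 783 bases. The copies of mt-Co1 and mt-Nd3, in contrast, each differ from the mitochondrial gene at 1 base of the aligned stretch. Gm29216 differs by A1066T over 483 bases of mt-Co1 and Gm28438 by T3C over 345 bases of mt-Nd3, with positions counted from 1 at the first base of the mitochondrial gene and the mitochondrial base given first. The differing base is in capitals (mt-Co1 chrM:6390-6423, plus strand; Gm29216 chr1:24616155-24616188, minus strand; mt-Nd3 chrM:9459-9491, plus strand; Gm28438 chr1:24613087-24613119, minus strand, all GRCm38).
mt-Co1: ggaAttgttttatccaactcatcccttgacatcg
Gm29216: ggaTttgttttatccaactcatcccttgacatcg
mt-Nd3: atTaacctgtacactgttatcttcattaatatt
Gm28438: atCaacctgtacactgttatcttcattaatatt

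Gm28661 held 105167, 148497 and 62000 counts in shSQLE replicates 1, 2 and 5, against 174410, 123674 and 159910 in shControl replicates 1, 4 and 5. Gm10925 held 56180, 102541 and 36931 in the shSQLE libraries, against 87712, 72525 and 79714 in the shControl libraries. Gm28437 held 59430, 64912 and 40266 in the shSQLE libraries, against 85519, 73078 and 69667 in the shControl libraries. These are counts of the size seen at mt-Nd1 and mt-Cytb, and in each of the 3 copies shSQLE replicate 5 was lowest. For mt-Co1, between 24.2% and 33.0% of the summed counts of gene and copy were at Gm29216, and for mt-Nd3 between 50.7% and 56.7% were at Gm28438. The copies of mt-Nd4l and mt-Nd4 (Gm10222 and Gm28439) were at 0 in all libraries although they are identical to the mitochondrial genes over 294 and 876 bases. The gene mt-Atp8 overlaps mt-Atp6 by 43 bases and has a deposited effective length of only 8.89 bases, and no copy with its counts was found among the 7. Values for mt-Co1 and mt-Nd3 below are for counts placed at the mitochondrial gene, and values for the summed counts of gene and copy are given beside them.

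**Figure D1:**
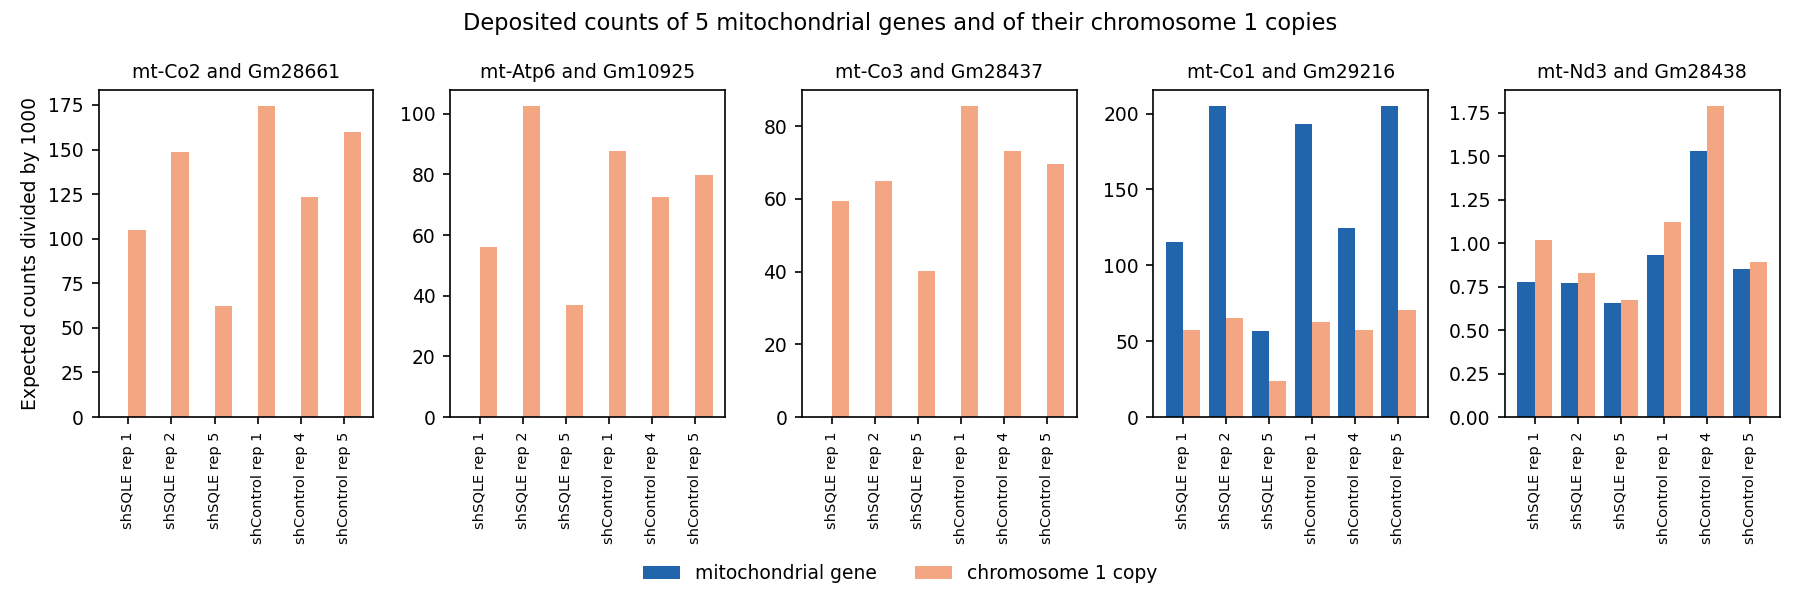
Deposited expected counts divided by 1000 (linear axis from 0, own scale per gene) of 5 mitochondrial genes in blue and of their chromosome 1 copies in orange, in each of the 3 shSQLE and 3 shControl libraries. For mt-Co2, mt-Atp6 and mt-Co3 the counts stood at the copy in all 6 libraries, while mt-Co1 and mt-Nd3 were divided between gene and copy.

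The 9 mitochondrial genes that passed the filter were all lower on average in shSQLE, with log2 fold changes of -0.66 to -0.14 and a median of -0.33. None passed the adjusted threshold, and for 5 of the 9 the direction rested on shSQLE replicate 5. Over all 13268 tested genes the median was -0.02, and 52.6% were lower in shSQLE by a fold change of any size. No gene of the whole table passed the adjusted threshold of 0.05 in edgeR (0.0%), and none did in limma voom, while DESeq2 called 8 of 12218 genes (0.0655%), none of them a member. At an unadjusted p under 0.05, edgeR gave 413 genes (3.11%), among them 1 mitochondrial and 1 nuclear member. DESeq2 gave 471 (3.55%), also with 1 member of each genome, and limma voom 374 (2.82%) with no member. Without shSQLE replicate 5, which was the lowest library for all 9 genes and for 18.6% of all tested genes, the median was 0.00, with 5 of the 9 genes higher and 4 lower. The 4 that stayed lower, mt-Co1, mt-Nd3, mt-Nd4 and mt-Nd4l, were lower in all 16 alternative runs, though mt-Nd4 came as near 0 as -0.03. The median of the 9 was -0.10 without shControl replicate 5 and -0.76 without shSQLE replicate 2.

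Markers of host cells also differed on average between the groups, with no marker past the adjusted threshold and none of those in the 5 lists given here at 0 in all libraries. Of the tested fibroblast markers, 0 of 9 were higher in shSQLE (median log2 fold change -0.54), and the 10 listed summed to 66.1, 317 and 444 CPM in shSQLE, against 569, 150 and 439 CPM in shControl. Of the endothelial markers, 0 of 9 were higher (-0.54), with sums of 76.6, 90.6 and 80.2 CPM in shSQLE, against 164, 68.4 and 115 CPM in shControl. Of the macrophage markers, 1 of 15 was higher (-0.35), with sums of 87.9, 257 and 459 CPM in shSQLE, against 256, 162 and 565 CPM in shControl. All 3 of these sums overlapped between the groups. The fibroblast and macrophage sums were lowest in shSQLE replicate 1, followed by shControl replicate 4. The endothelial sum was lowest in shControl replicate 4, followed by shSQLE replicates 1 and 5. The mean level of the mitochondrial genes was lowest in shSQLE replicate 5, followed by shSQLE replicate 1 and shControl replicate 4. The marker sums did not share this order. For fibroblast markers shSQLE replicate 5, at 444 CPM, was behind only shControl replicate 1. For macrophage markers, at 459 CPM, it was behind only shControl replicate 5. Of the adipocyte markers, 0 of 6 tested were higher (-3.22, 5 at an unadjusted edgeR p under 0.05), and the 9 listed summed to 20.6, 25.1 and 35.5 CPM in shSQLE, against 106, 21.6 and 351 CPM in shControl. All 6 erythroid markers were higher (1.11), with sums of 28654, 5732 and 3402 CPM in shSQLE, against 6610, 7646 and 2854 CPM in shControl, and shSQLE replicate 1 stood far above the rest. The part of these cells in the level of the members was not tested.

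In complex I, the NADH dehydrogenase that is the chain's main entry point, all 7 mitochondrial subunits were tested. Among them mt-Nd1, which forms part of the ubiquinone binding site, was the most abundant per length at a mean of 5369 TPM. Its level was 3237, 4770 and 1515 CPM in shSQLE, against 2991, 3723 and 5366 CPM in shControl, so the groups overlapped, and the log2 fold change was -0.34 (SE 0.42). The genes of the proton-pumping subunits mt-Nd2, mt-Nd4 and mt-Nd5 shared their lowest library. The level of mt-Nd2 was 1005, 1809 and 540 CPM in shSQLE, against 1106, 1170 and 1415 CPM in shControl (log2 fold change -0.14, SE 0.40). For mt-Nd4 it was 1383, 2025 and 772 CPM in shSQLE, against 1376, 1615 and 2267 CPM in shControl (-0.33, SE 0.37). For mt-Nd5 it was 722, 1372 and 315 CPM in shSQLE, against 967, 551 and 1138 CPM in shControl (-0.14, SE 0.49). In all 3 genes shSQLE replicate 5 was lowest and shSQLE replicate 2 was well above shSQLE replicate 1, and the shSQLE libraries spanned the whole shControl range in mt-Nd2 and mt-Nd5.

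Among the less abundant complex I genes, mt-Nd3 and mt-Nd4l had another order of libraries, while mt-Nd6, like mt-Nd5, was highest in shSQLE replicate 2 and lowest in shSQLE replicate 5. The level of mt-Nd3 was 43.7, 39.1 and 36.1 CPM in shSQLE, against 50.8, 90.2 and 46.5 CPM in shControl, which is 39.6 ± 3.84 and 62.5 ± 24.0 CPM (SD, n = 3 each). All shSQLE libraries were below all shControl libraries, and the highest, shControl replicate 4, stood apart from the other 5. The log2 fold change was -0.66 (SE 0.27; adjusted p 0.9996 by edgeR's quasi-likelihood test). Groups that did not overlap were found for 855 tested genes (6.44%), of which 444 (3.35%) were lower in shSQLE, and mt-Nd3 was the only one of the 9 mitochondrial members among them. Summed with Gm28438, mt-Nd3 was at 101, 81.1 and 73.1 CPM in shSQLE, against 112, 196 and 95.4 CPM in shControl, and the groups then overlapped by shSQLE replicate 1 (log2 fold change -0.66, SE 0.29).

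The gene mt-Nd4l, whose last 7 bases overlap the start of mt-Nd4, was at 52.3, 56.2 and 38.9 CPM in shSQLE, against 123, 51.3 and 58.9 CPM in shControl. Here shControl replicate 1 was high and the other 5 libraries were close together (log2 fold change -0.66, SE 0.33). The gene mt-Nd6, the only protein gene on the opposite strand of the mitochondrial genome, was at 45.5, 106 and 33.3 CPM in shSQLE, against 98.0, 48.1 and 78.1 CPM in shControl (-0.28, SE 0.43). Its lowest values were in shSQLE replicates 5 and 1 and shControl replicate 4. Whether counting used strand is not given in the sources used here, so reads of mt-Nd6 and of transcripts running across it cannot be told apart.

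The mitochondrial subunit of complex III, mt-Cytb (cytochrome b), was the most abundant of the 9 tested mitochondrial genes per length at 8156 TPM. The next, mt-Co1 at 6880 TPM, leaves out its counts at Gm29216, so this order may depend on where reads were placed. The level of mt-Cytb was 6053, 9640 and 3314 CPM in shSQLE, against 6948, 6496 and 8396 CPM in shControl. The lowest and the highest library were both shSQLE, and the log2 fold change was -0.20 (SE 0.38). In complex IV, mt-Co1 encodes the catalytic subunit that binds oxygen. Its level was 6513, 10402 and 3129 CPM in shSQLE, against 10510, 7336 and 11181 CPM in shControl, with overlapping groups and a log2 fold change of -0.53 (SE 0.43). Summed with Gm29216, it was at 9726, 13718 and 4438 CPM in shSQLE, against 13920, 10722 and 15050 CPM in shControl (-0.51, SE 0.41).

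Adding the counts of the copies, a step chosen after the counts at the copies were seen, brought 12 of the 13 mitochondrial genes into the test. All 12 were lower on average in shSQLE. Their median was -0.35 on the log2 scale, none at the adjusted threshold and 1, mt-Nd3, at an unadjusted edgeR p under 0.05. These 12 include the 9 genes tested above, and shSQLE replicate 5 was also the lowest library for summed mt-Co2, mt-Co3 and mt-Atp6. The summed counts were not fitted without shSQLE replicate 5. Summed mt-Co2, which carries the first electron acceptor of complex IV, was at 5924, 7536 and 3420 CPM in shSQLE, against 9500, 7298 and 8734 CPM in shControl (-0.60, SE 0.33), and only shSQLE replicate 2 reached the shControl range. Summed mt-Co3 was at 3347, 3294 and 2221 CPM in shSQLE, against 4658, 4312 and 3805 CPM in shControl, or 2954 ± 635 and 4258 ± 429 CPM (SD, n = 3 each). The 2 groups of summed mt-Co3 did not overlap (log2 fold change -0.53, SE 0.26). Before summing, 3.35% of all tested genes had all shSQLE libraries below all shControl libraries. Summed mt-Atp6, which forms the proton path of ATP synthase, was at 3164, 5204 and 2037 CPM in shSQLE, against 4777, 4280 and 4354 CPM in shControl (-0.37, SE 0.35), with the highest and the lowest library both in shSQLE.

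On the nuclear side, 84 of the 105 rows were tested. Of the other 21, 17 were at 0 in all libraries and 13 of the 21 carried the -ps suffix of a pseudogene. Of the 84 tested, 50 were higher and 34 lower in shSQLE by a fold change of any size, where 47.4% of all tested genes were higher, and the median log2 fold change was 0.05, within a range of -0.86 to 2.34. None passed the adjusted threshold in edgeR, DESeq2 or limma voom. One nuclear member, Cox6a2, had an unadjusted edgeR p under 0.05, and 1, Atp5b, had groups that did not overlap, with all shSQLE libraries above all shControl libraries, where 411 of all tested genes (3.1%) did so. With library size alone as scaling the median was -0.01, and it was -0.13 without shSQLE replicate 5 and 0.29 without shSQLE replicate 2.

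**Figure D2:**
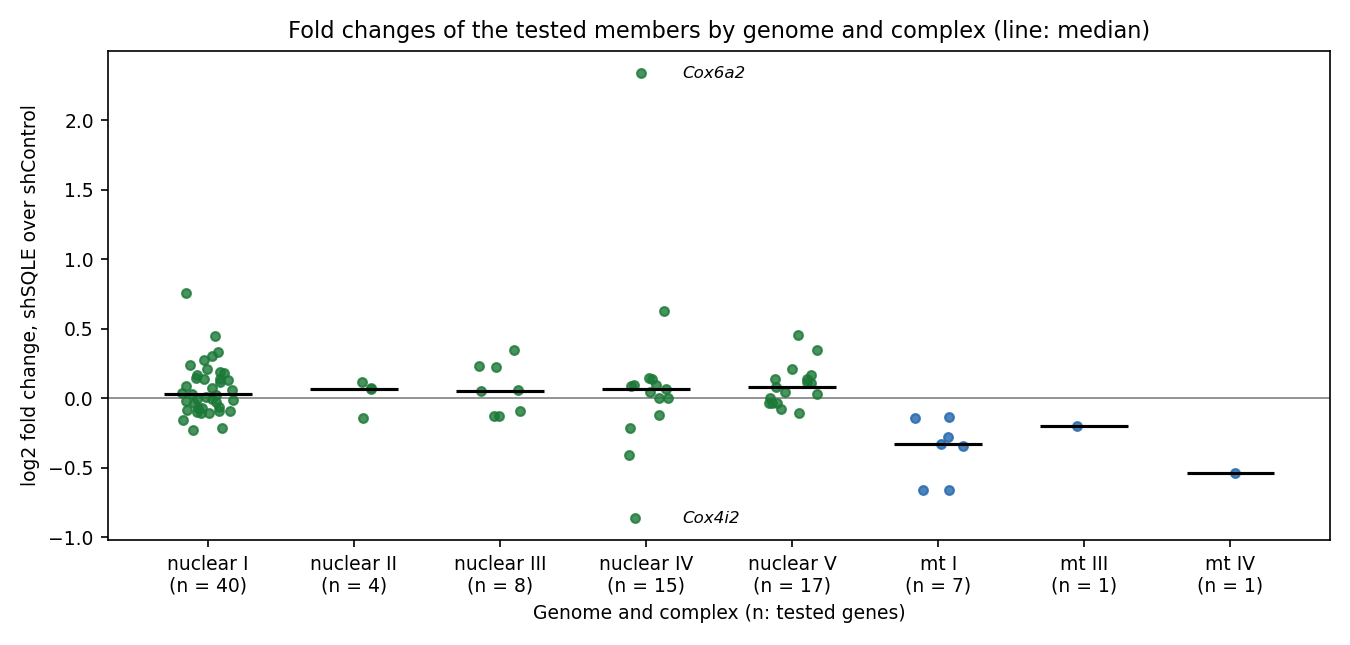
Log2 fold change of shSQLE over shControl (vertical axis) for each tested member, one point per gene, by genome and complex, with the median as a line. Nuclear complexes had medians of 0.03 to 0.08, all 9 mitochondrial genes lay below 0, and Cox6a2 and Cox4i2 of complex IV were the highest and the lowest nuclear members.

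The complexes did not separate from each other. Complex I had 40 tested nuclear members, 22 higher and 18 lower, with a median of 0.03, against -0.33 for its 7 mitochondrial members. Its 7 core nuclear subunits, which carry the flavin and iron-sulphur clusters, had a median of -0.02. Complex III had 5 of 8 tested nuclear members higher, with a median of 0.05, and complex IV 9 of 15, with a median of 0.07. ATP synthase had 11 of 17 higher, with a median of 0.08. In complexes I, III and IV, the tested mitochondrial members were thus lower and the nuclear median was above 0, with neither past the test. The difference between the genomes was not tested, since members of a list are not replicates.

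Among nuclear complex I genes, the smallest unadjusted p belonged to Ndufa12-ps, a pseudogene, and Ndufs7, which carries the last iron-sulphur cluster before ubiquinone. Ndufs7 was at 167, 125 and 257 CPM in shSQLE, against 80.0, 152 and 171 CPM in shControl (log2 fold change 0.44, SE 0.34), and the groups overlapped. Ndufa12-ps was at 2.54, 1.07 and 3.48 CPM in shSQLE, against 1.31, 2.07 and 0.819 CPM in shControl (0.75, SE 0.54). The members of this name group with the highest levels per length were Ndufa4, at 1333 TPM, and Ndufv3, at 1162 TPM. Ndufa4, now known as a subunit of complex IV despite its name, was at 570, 314 and 658 CPM in shSQLE, against 403, 619 and 380 CPM in shControl (0.14, SE 0.32). Ndufv3, an accessory subunit near the NADH binding site, was at 452, 225 and 298 CPM in shSQLE, against 279, 412 and 453 CPM in shControl (-0.23, SE 0.30). Both had their lowest value in shSQLE replicate 2 and values near the top in both groups.

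Complex II, succinate dehydrogenase, is also an enzyme of the tricarboxylic acid cycle. Its flavoprotein Sdha was at 306, 256 and 297 CPM in shSQLE, against 223, 310 and 285 CPM in shControl (log2 fold change 0.07, SE 0.21). The iron-sulphur subunit Sdhb was at 476, 266 and 544 CPM in shSQLE, against 272, 565 and 347 CPM in shControl (0.12, SE 0.35). Sdha varied little, whereas Sdhb was low in shSQLE replicate 2 and shControl replicate 1 alike. The membrane anchors had their lowest values in the same libraries: Sdhc was at 183, 105 and 150 CPM in shSQLE, against 121, 213 and 149 CPM in shControl (-0.14, SE 0.28), and Sdhd at 274, 170 and 265 CPM in shSQLE, against 161, 308 and 206 CPM in shControl (0.07, SE 0.29).

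In complex III, the small subunits Uqcr11 and Uqcr10 had both the smallest unadjusted p and the highest levels per length, at 1435 and 1712 TPM. Uqcr11 was at 377, 154 and 502 CPM in shSQLE, against 219, 338 and 255 CPM in shControl (0.35, SE 0.39). Uqcr10 was at 432, 256 and 443 CPM in shSQLE, against 231, 418 and 319 CPM in shControl (0.23, SE 0.30). In both genes shSQLE replicates 1 and 5 were above all shControl libraries, while shSQLE replicate 2 and shControl replicate 1 were the lowest.

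Complex IV has tissue isoforms beside ubiquitous subunits, and the extremes of the nuclear fold changes were both isoforms at low levels. Cox6a2, the heart and skeletal muscle form of subunit 6A, was at 1.13, 2.94 and 19.97 CPM in shSQLE, against 1.63, 2.18 and 0.928 CPM in shControl. The log2 fold change of 2.34 (SE 0.98; DESeq2 adjusted p 0.434) rested on shSQLE replicate 5, without which it was 0.38. In the same library the 18 skeletal muscle markers summed to 1845 CPM, against 43.8 and 95.0 CPM in the other shSQLE libraries and 21.3, 217 and 24.6 CPM in shControl. Of these markers, 15 passed the filter, 14 of them were higher in shSQLE and none passed the test. Acta1, skeletal muscle actin, was at 9.97, 41.6 and 645 CPM in shSQLE, against 2.12, 82.7 and 2.95 CPM in shControl. What muscle RNA contributed to Cox6a2 was not tested.

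The other tissue isoforms did not all show that pattern. Cox8b was at 0.507, 0.152 and 3.59 CPM in shSQLE, against 0.218, 1.65 and 0.874 CPM in shControl (0.63, SE 1.04), again with shSQLE replicate 5 highest. Cox7a1 was at 4.79, 0.507 and 3.53 CPM in shSQLE, against 4.14, 4.78 and 2.79 CPM in shControl (-0.41, SE 0.65), with shSQLE replicate 2 alone low. Cox4i2, an isoform of subunit 4 known from lung and linked to low oxygen, was at 0.676, 0.761 and 1.27 CPM in shSQLE, against 2.51, 0.885 and 1.53 CPM in shControl (-0.86, SE 0.50), and the groups overlapped. Ndufa4l2, a hypoxia-induced relative of Ndufa4, was at 5.01, 7.10 and 7.61 CPM in shSQLE, against 8.12, 4.25 and 8.52 CPM in shControl (-0.08, SE 0.34). Cox6b2 did not pass the filter, with at most 47 counts in a library, and Cox7b2 and Cox8c were at 0 in all libraries.

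Their ubiquitous partners were abundant and lay close to 0. Cox8a, at 2455 TPM, and Cox6a1, at 1815 TPM, had the highest levels per length of nuclear complex IV. Cox8a was at 893, 574 and 900 CPM in shSQLE, against 424, 912 and 887 CPM in shControl (log2 fold change 0.09, SE 0.34), and Cox6a1 at 726, 547 and 615 CPM in shSQLE, against 319, 624 and 761 CPM in shControl (0.15, SE 0.32). Both were lowest in shControl replicate 1. Cox4i1 was at 901, 419 and 941 CPM in shSQLE, against 551, 888 and 681 CPM in shControl (0.09, SE 0.34), with shSQLE replicate 2 lowest. Cox6b1 (0.14, SE 0.39), Cox7a2 (-0.00, SE 0.40) and Cox7b (0.04, SE 0.29) had the same lowest library.

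In ATP synthase, Atp5b, the catalytic beta subunit, was the nuclear member whose groups did not overlap. It was at 2561, 2432 and 3015 CPM in shSQLE, against 1570, 2403 and 2315 CPM in shControl, or 2670 ± 306 and 2096 ± 458 CPM (SD, n = 3 each). Its lowest shSQLE value was just above its highest shControl value, and the log2 fold change of 0.35 (SE 0.26) did not pass the test. Atp5d, the delta subunit of the central stalk, was at 912, 845 and 1257 CPM in shSQLE, against 454, 813 and 934 CPM in shControl (0.45, SE 0.31). Atp5g3, a form of the membrane ring subunit and at 1521 TPM the next of this complex after Atp5b at 2387 TPM, was at 842, 300 and 1014 CPM in shSQLE, against 535, 1171 and 504 CPM in shControl (-0.04, SE 0.48). The spread of Atp5g3 within each group was far larger than its difference between groups.

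Within the libraries, the nuclear members moved together and nearly opposite to the mitochondrial ones. The mean log2 CPM of the 84 nuclear members was 7.41, 6.59 and 7.59 in shSQLE, against 6.89, 7.53 and 7.07 in shControl, or 7.20 ± 0.53 and 7.17 ± 0.33 (SD, n = 3 each). That of the 9 mitochondrial members was 9.27, 9.87 and 8.49 in shSQLE, against 9.71, 9.46 and 9.82 in shControl, or 9.21 ± 0.70 and 9.66 ± 0.19 (SD, n = 3 each). The 3 libraries with the highest nuclear means, shSQLE replicates 5 and 1 and shControl replicate 4, were the 3 with the lowest mitochondrial means. The mitochondrial mean minus the nuclear mean was 1.87, 3.28 and 0.90 in shSQLE, against 2.81, 1.93 and 2.74 in shControl. The largest and the smallest difference were thus both in the knockdown group, whose average of 2.02 ± 1.20 was 0.48 log2 units below the 2.49 ± 0.49 of shControl (SD, n = 3 each). Without shSQLE replicate 5 the knockdown group was 0.08 above shControl, and without shSQLE replicate 2 the difference was -1.11.

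**Figure D3:**
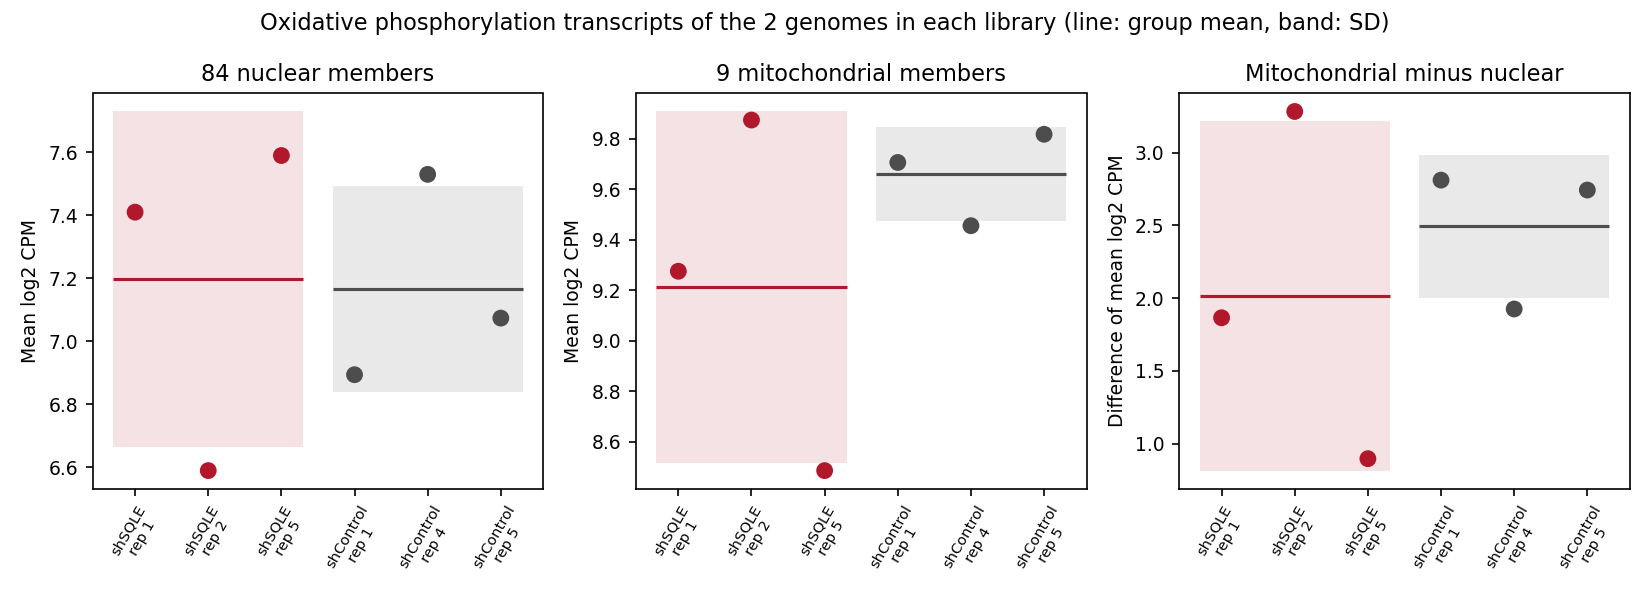
Mean log2 CPM of the 84 nuclear and of the 9 mitochondrial members that were tested, and the mitochondrial minus the nuclear mean, in each library (shSQLE red, shControl grey; line, group mean; band, SD over 3 libraries; axes do not start at 0). Replicates 2 and 5 of shSQLE were at opposite ends in all 3 panels, with the shControl libraries between them.

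As a share of all counts, the 13 mitochondrial genes took 1.77%, 3.16% and 0.935% in shSQLE, against 2.70%, 2.03% and 2.95% in shControl. With the chromosome 1 copies the shares were 3.22%, 5.19% and 1.81% in shSQLE, against 5.21%, 3.90% and 5.00% in shControl, so the order of libraries stayed close. An exact two-sided permutation test of the mitochondrial share over the libraries gave p = 0.5 without and 0.3 with the copies, where 3 libraries against 3 cannot go below 0.1. The nuclear members took 2.50%, 1.80% and 2.79% in shSQLE, against 1.91%, 2.72% and 2.20% in shControl. The ratio of summed TPM, mitochondrial over nuclear, was 0.374, 1.01 and 0.182 in shSQLE, against 0.737, 0.399 and 0.720 in shControl. Without the copies, only in shSQLE replicate 2 did the mitochondrial sum reach that of the nuclear members. These TPM sums leave out the counts of mt-Co2, mt-Co3, mt-Atp6 and part of mt-Co1 that stood at the copies. They may thus understate the mitochondrial genes, and which libraries would reach the nuclear sum with the copies was not worked out. Of the nuclear members, 57 of 84 had their lowest level in shSQLE replicate 2 and 23 in shControl replicate 1, where 20.6% and 21.8% of all tested genes did so. The highest level was in shSQLE replicate 5 for 37 members and in shControl replicate 4 for 33, against 16.3% and 16.8% of all tested genes, and in shSQLE replicate 2 for none.

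**Figure D4:**
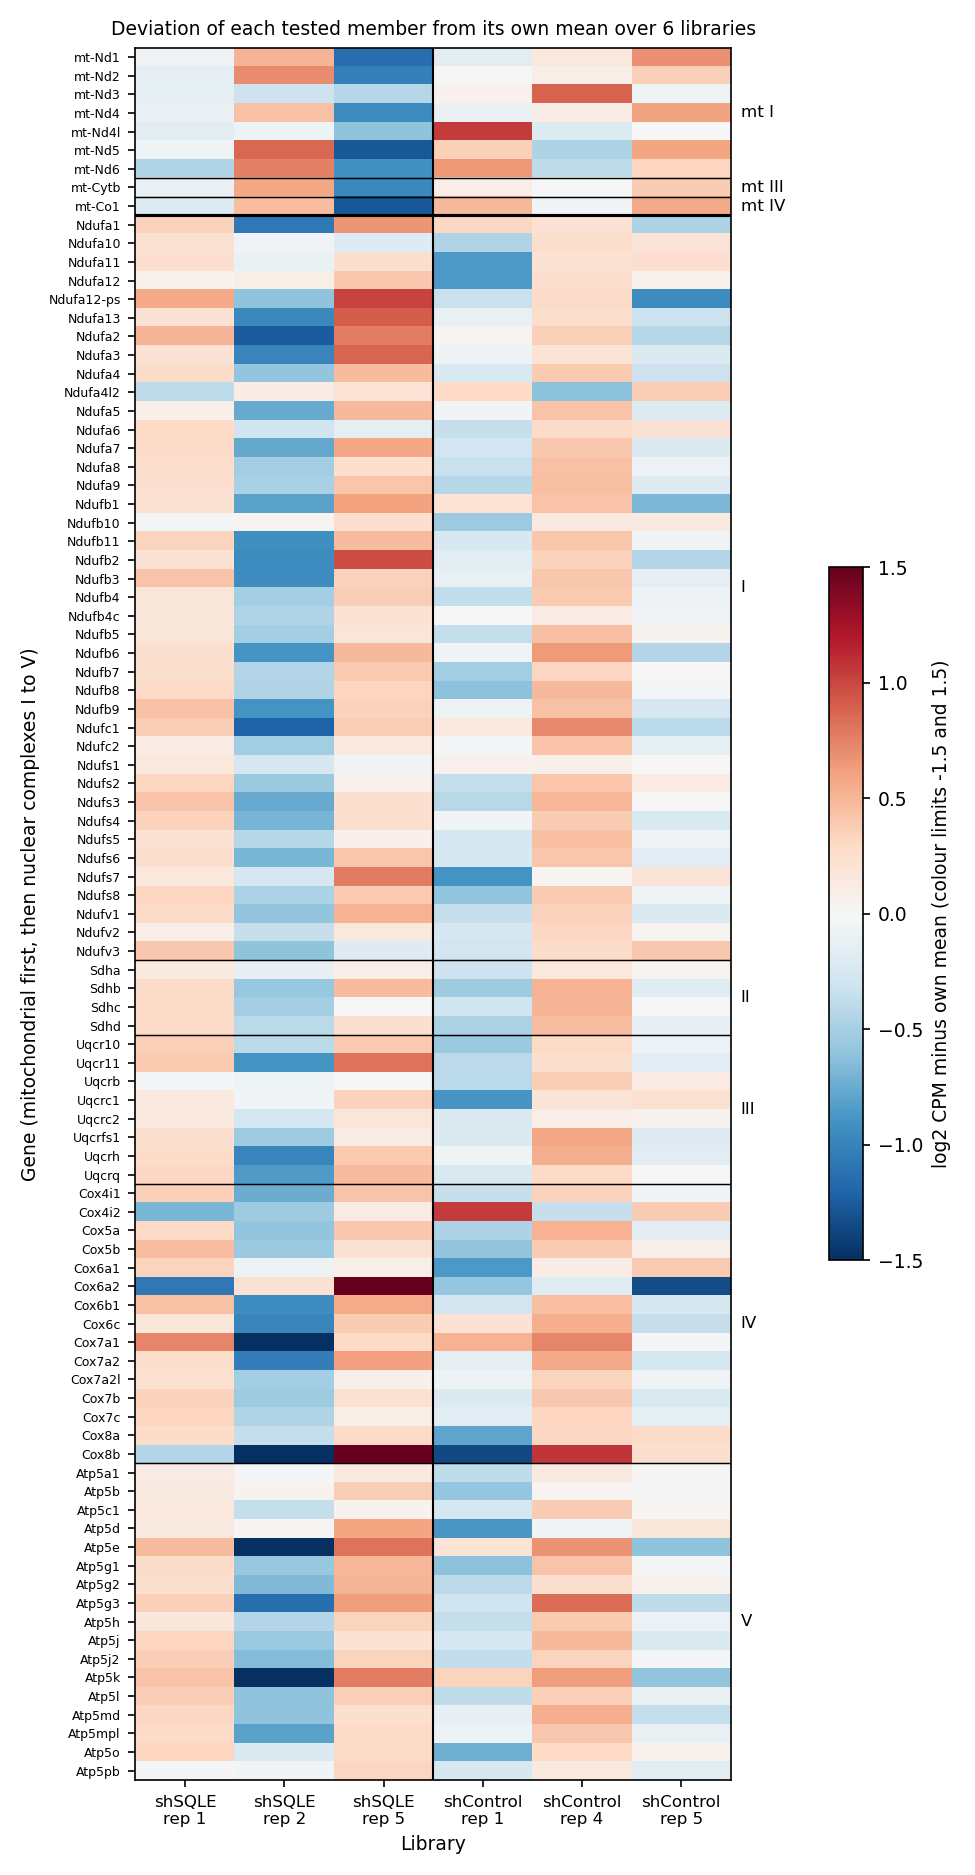
Level of each tested member in each library as log2 CPM minus the gene's own mean over the 6 libraries (red above, blue below; colours end at -1.5 and 1.5), with the shSQLE libraries on the left and rows ordered by genome and complex. Most nuclear rows are blue in shSQLE replicate 2 and red in shSQLE replicate 5 and shControl replicate 4, and all 9 mitochondrial rows are blue in shSQLE replicate 5.

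Nuclear oxidative phosphorylation transcripts are short, with a median deposited length of 686 bases against 2378 bases for all tested genes. The size of their deviations between libraries differed by length class. Among the 31 members of up to 600 bases, the median deviation from a gene's own mean was 0.29, -0.76 and 0.39 log2 units in shSQLE, against -0.24, 0.36 and -0.16 in shControl. Among the 3 members over 2000 bases it was 0.14, -0.12 and 0.10 in shSQLE, against -0.31, 0.13 and 0.02 in shControl. The deviation in shSQLE replicate 2 thus shrank with length, while shControl replicate 1 was low at both ends. Between these ends, the 17 members of 1000 to 2000 bases had medians of 0.23, -0.49 and 0.23 in shSQLE, against -0.30, 0.34 and -0.05 in shControl. All 3848 tested genes of that length had medians of 0.09, -0.14 and 0.11 in shSQLE, against -0.19, 0.13 and 0.02 in shControl. In this class the members thus deviated further than genes of like length. The 338 tested genes of up to 600 bases, whatever their function, had medians of 0.20, -0.60 and 0.37 in shSQLE, against -0.03, 0.32 and -0.17 in shControl. These 338 include the 31 members, so the 2 sets are not separate. Short genes as a class had medians near those of the short nuclear members in 5 of the 6 libraries. The exception was shControl replicate 1, where the members were lower than short genes in general. Over the 84 members the Spearman correlation of deviation with length was -0.29, 0.46 and -0.34 in shSQLE, against -0.21, -0.23 and 0.28 in shControl; these are across genes of the same libraries, which are not independent replicates. Over all 13268 tested genes it was -0.33, 0.39 and -0.38 in shSQLE, against 0.48, -0.40 and -0.09 in shControl. The part of length or RNA quality in the order of the nuclear members was not tested.

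**Figure D5:**
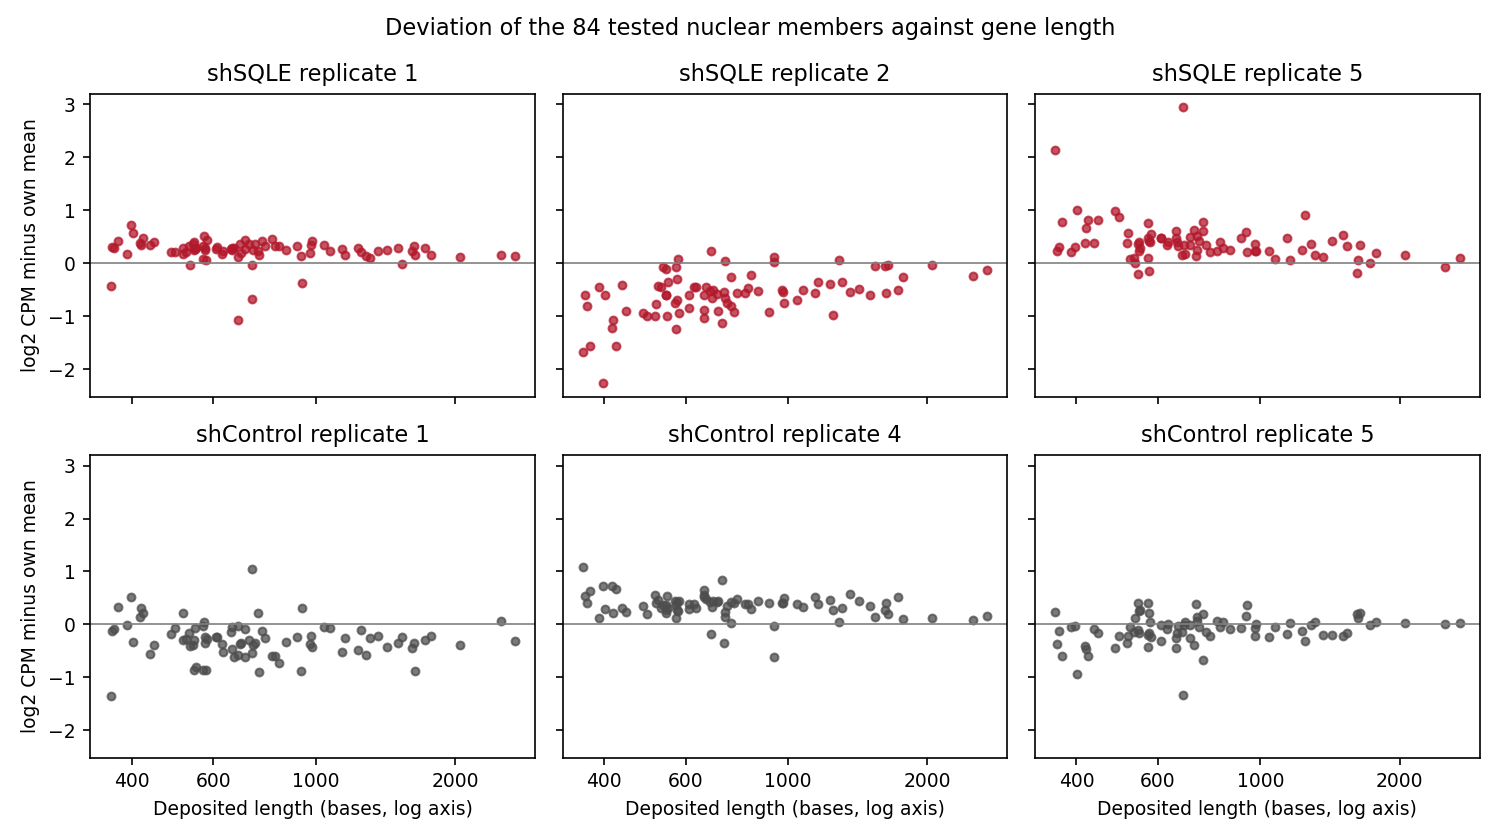
Level of each of the 84 tested nuclear members as log2 CPM minus the gene's own mean (vertical axis) against its deposited length in bases (log axis), one panel per library, shSQLE above and shControl below. In shSQLE replicate 2 nearly all points lie below 0 and the shortest genes lie lowest, while in shSQLE replicate 5 and shControl replicate 4 most points lie above 0.

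The mitochondrial ribosomal RNAs, named after their values were seen, were lower on average in shSQLE: mt-Rnr1 was at 88.4, 89.0 and 39.2 CPM in shSQLE, against 162, 112 and 121 CPM in shControl (log2 fold change -0.87, SE 0.32). All 3 shSQLE libraries were below all 3 shControl libraries, as for 3.35% of all tested genes. For mt-Rnr2 the levels were 131, 143 and 58.2 CPM in shSQLE, against 356, 126 and 183 CPM in shControl (-0.999, SE 0.44), with overlapping groups. Neither passed the adjusted threshold. Of 4 tested transcripts that stay in the nucleus, 3 were lower in shSQLE with a list median of -1.09. The mean log2 CPM of the 4 was 2.53, 2.57 and 2.33 in shSQLE, against 3.99, 3.04 and 2.77 in shControl. The 6 listed transcripts found, tested or not, summed to 117, 91.7 and 100 CPM in shSQLE, against 200, 121 and 86.7 CPM in shControl. These sums overlapped, with shControl replicate 5 lowest. The part of RNA composition in the level of the mitochondrial genes was not tested.

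The genes that assemble and support the chain had medians near that of all genes, and none of them passed the adjusted threshold. Of 44 tested assembly factors, 19 were higher in shSQLE, and the median was -0.00 on the log2 fold change scale. The smallest unadjusted p among them belonged to Cox20, which guides mt-Co2 into complex IV (-0.31, SE 0.22), and Coa5, a complex IV assembly factor (-0.25, SE 0.19). Of 4 genes for mobile carriers and subunits outside the name rule, 2 were higher, and those named by their p were Cyc1, the cytochrome c1 of complex III (0.17, SE 0.31), and Hccs, which attaches haem to c-type cytochromes (-0.07, SE 0.29). Of 18 tricarboxylic acid cycle genes, 13 were higher with a median of 0.07, among them Ogdh (0.26, SE 0.25), while Dld, the lipoamide dehydrogenase that Ogdh works with, was at -0.21 (SE 0.20). Of 25 tested genes for membrane and import proteins, 14 were higher with a median of 0.02, including the inner membrane scaffold Phb2 (0.25, SE 0.26) but not the outer membrane channel Vdac1 (-0.20, SE 0.29).

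Genes that act on mitochondrial DNA and its transcription had 7 of 27 tested members higher in shSQLE and a median of -0.05. Polrmt, the mitochondrial RNA polymerase, was at 59.4, 65.7 and 56.5 CPM in shSQLE, against 33.6, 52.0 and 56.3 CPM in shControl (log2 fold change 0.36, SE 0.23). Its groups did not overlap, but shSQLE replicate 5 and shControl replicate 5 were nearly equal. Mterf1a, a transcription termination factor named here after its values were seen, was the other gene of this list whose groups did not overlap. It was lower in all shSQLE libraries, at 2.08, 1.73 and 1.88 CPM, against 2.29, 2.24 and 2.46 CPM in shControl (-0.30, SE 0.33). Mterf1b, its close paralog, was at -0.76 (SE 0.48), and reads may be divided between these paralogs, so both values are uncertain. Of 11 tested regulators of mitochondrial biogenesis, 7 were higher with a median of 0.11. Nrf1, a transcription factor that acts on many respiratory chain genes, was at 55.6, 51.9 and 52.1 CPM in shSQLE, against 47.9, 45.5 and 42.6 CPM in shControl (0.23, SE 0.17), with groups that did not overlap. Over all tested genes, groups did not overlap for 3.1% with shSQLE higher and for 3.35% with shSQLE lower. Single genes of this kind in lists of 27 and 11 say little about the lists. Myc was at 66.4, 151 and 87.9 CPM in shSQLE, against 55.0, 49.2 and 87.7 CPM in shControl (0.67, SE 0.34), with shSQLE replicate 2 highest.

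The nuclear members shared an order of libraries, so their promoters were searched for 3 motifs, on both strands and from 250 bases before to 50 bases after the start site. The first 2 were a longer NRF1 consensus of 10 bases, named here without its letters, and the TATA box TATAAA. The third, TGCGCA, the core of the NRF1 site, was added after the counts of the first 2 were seen, because its letters can be printed here. The 2 NRF1 forms describe the same kind of site, so they are not separate evidence, although a promoter may hold them at different places. RefSeq promoter sequences (GRCm38.p6) were found for 67 of the 84 tested nuclear members. Of these, 17 (25.4%) held the longer NRF1 form, as did 1160 of 10131 promoters of tested genes (11.5%) and 5.19% of all 27025 promoters in the table. The core TGCGCA was in 18 (26.9%) of the members' promoters, 1608 (15.9%) of those of tested genes and 8.79% of all. TATAAA was in 7 (10.4%) of the members' promoters, 892 (8.8%) of those of tested genes and 15.7% of all. Sdha, Sdhd, Uqcrc1 and Cox6a1 were among the members with both NRF1 forms. A match describes the letters in this window and says nothing of binding in these tumours. The promoter of Cox6a1 (chr5:115348909-115349208, minus strand, GRCm38.p6), an abundant complex IV gene, is shown with its match to TGCGCA in capitals. Its match to the longer NRF1 form lies at another place, before the capitals, and is left in lower case.
Cox6a1: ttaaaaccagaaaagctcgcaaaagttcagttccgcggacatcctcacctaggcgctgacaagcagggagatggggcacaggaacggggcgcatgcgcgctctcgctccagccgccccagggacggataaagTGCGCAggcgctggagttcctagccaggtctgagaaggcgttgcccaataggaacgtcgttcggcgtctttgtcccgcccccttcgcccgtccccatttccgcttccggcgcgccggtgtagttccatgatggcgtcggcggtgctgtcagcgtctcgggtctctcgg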

How the data were processed

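RNA sequencing libraries were made from total RNA, per the labels' protocols, and sequenced as paired reads. The authors deposited 1 table of expected counts per gene and library; STAR, RSEM, FastQC and DESeq2 and the build GRCm39 are named, per the submitters' processing notes. Versions, annotation release and strand setting were not found in the labels or the file header. Of the deposited values above 0, 11.4% to 12.7% in a library were not whole, since RSEM divides reads among genes, and 5 of the 84 tested nuclear members (Ndufb6, Ndufb9, Ndufs1, Uqcrc2 and Cox6c) had such values. Reads of near-identical copies and overlapping genes may be shared. The authors' table also holds each gene's length, plain and effective (bases), deposited values handled as a signal that is never negative and used only for TPM and length classes.

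Expected counts were rounded and filtered (filterByExpr, minimum count 10, minimum total 15). Of the 13268 genes left, edgeR 4.0.16 (R 4.3.3; TMM factors 0.928 to 1.12; glmQLFit with robust=TRUE, glmQLFTest) compared 3 shSQLE with 3 shControl libraries, with Benjamini-Hochberg adjustment over all of them and a threshold of 0.05. The SE is the log2 fold change divided by the square root of F. Mean log2 CPM used a prior count of 2. Lists were described by counts and medians, and the mitochondrial share of counts was compared by an exact two-sided permutation test over libraries. DESeq2 1.42.0 and limma voom (limma 3.58.1), other scalings, filters and left-out libraries were alternatives; DESeq2 gave no adjusted p for 1050 genes. The scripts were tested on simulated data with the same spread for all genes. There edgeR called 18% of 2-fold and 96% of 4-fold changes at the adjusted threshold, so most 2-fold changes were missed. Sequences are from GENCODE M21 (GRCm38) and RefSeq (GRCm38.p6), aligned with Biopython 1.88. Of 3 promoter motifs searched, the shortest NRF1 form was added after the counts of the other 2 were seen.

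The members, lists and tests were chosen with earlier results of these data known. Named are Sqle, the mitochondrial genes, complex II, from each other complex the 2 nuclear members with the smallest p and the 2 highest in TPM, the tissue isoforms with their partners, and the 2 genes with the smallest p of each pathway list; others are said to be chosen after their values were seen. Among them are Gm28661 and the other copies, mt-Rnr1, mt-Rnr2, Mterf1a and Acta1.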

Additional observations from a re-analysis of the deposited data

How the results depend on the processing

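No member passed the adjusted threshold under any alternative run. Over all tested genes, the number past it was 0 in edgeR, 8 with DESeq2 as the test and 41 with the replicate number as a block, and with each library left out it ranged from 0 to 31, with 31 reached without shSQLE replicate 1. Sqle, at a log2 fold change of -1.05, passed with DESeq2 (-1.05, adjusted p 8.15e-05) and in no other alternative. The replicate block, for numbers 1 and 5, gave a nuclear median of 0.54 and a mitochondrial median of -0.86. In that run shSQLE replicate 2 and shControl replicate 4 have no partner of the same number, so they added nothing to the fold changes. The medians and the 41 genes of the block thus rest on replicates 1 and 5 of each group. Deviations of libraries with the same number had correlations of -0.13 and 0.07, and so few values cannot decide whether libraries are paired. Whether the numbers pair the libraries by design is not stated in the labels. With each library left out, the nuclear median ranged from -0.13 to 0.29, the mitochondrial median from -0.76 to 0.00, the mitochondrial to nuclear difference from -1.11 to 0.08 and the difference in the mitochondrial share of counts, -0.606 percentage points, from -1.21 to -0.0964. The low ends of the last 3 were without shSQLE replicate 2 and the high ends without shSQLE replicate 5. With the copies summed, the difference between genomes was -0.50 and that in the share -1.30. It was -0.29 with the median over members. Over 754 values of 45 named genes, none passed the threshold, and 20 genes kept their direction in all alternatives while 25 turned in at least 1. The cause of these changes was not tested. No scaling moved the median of all genes by more than 0.1 (at most to -0.08, with library size alone). Removing the mitochondrial genes gives values for nuclear genes only. Genes under about 1 CPM, such as Cox8b, rest on few counts.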
